A study of Mus musculus with 6 samples.

Results

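The gene family examined here was that of the purinergic receptors, the cell surface receptors for extracellular ATP, other nucleotides and adenosine. Its members were 10 receptor genes taken by symbol from the 24532 genes of the deposited table: P2rx1, P2rx3, P2rx4, P2rx5, P2rx7, P2ry1, P2ry2, P2ry6, P2ry14 and Adora1. All 10 were in the table and all 10 passed the filter on low counts in each test, so no member was dropped. Bulk RNA-seq was performed on mouse tissue at postnatal day 1 (PN1), with 2 libraries of WT kidney, 2 of Ahnak KO kidney, 1 of WT ureter and 1 of Ahnak KO ureter. The KO mice carry Ahnak disrupted at exon 5, and no drug or other agent is named for any group. By the methods, 2 to 4 kidneys or ureters gave the RNA, so a library can hold pooled animals, and the number in each library is not given in the sources used here. Replicates are separate samples by their labels, but nothing states that they came from separate litters, so p-values measure only the spread between these libraries.

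ATP reaches the outside of a cell through channels or vesicles, and mechanical stretch of the urinary tract wall is a known trigger. The P2X receptors are cation channels that ATP opens, and they admit calcium. The P2Y receptors are G protein-coupled receptors for ATP, ADP, UTP, UDP or UDP-glucose, and surface enzymes break the nucleotides down to adenosine, which acts on the adenosine receptors. In the urinary tract these receptors are known for smooth muscle contraction, the sensing of filling, salt and water transport in the tubule, and the control of filtration.

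Total counts were 55744703 to 66095616 in the 4 kidney libraries, 54985927 in the WT ureter and 36410246 in the Ahnak KO ureter. A floor of 3 counts stood for 0.0454 to 0.0824 CPM, counts scaled to a common library total, which covers counting error only. Kidney markers (13 genes) summed to 1387 to 1557 TPM, a length-corrected share of all transcripts, in the kidney libraries and to 15.7 to 20.1 in the ureter libraries, where 7 of the 13, among them Umod and Aqp2, were listed at 0 in both. Urothelium markers (8 genes) summed to 92.5 to 109 TPM in kidney and 8485 to 8930 in ureter, so the 2 libraries whose titles read kidney and whose source label reads ureter carried ureter RNA. Of the 6 libraries 3 stood apart. Xist was at 176348 counts in Ahnak KO kidney 1 and at 17 to 36 in each other library, and the ribosomal transcript Rn45s took 8.06% of the counts in the Ahnak KO ureter and at most 0.632% elsewhere. Red blood cell markers (5 genes) summed to 119 TPM in WT kidney 2 and to 1067 to 2739 in the other libraries. Ahnak itself was at 20.6 and 22.1 TPM in the Ahnak KO kidneys and 24.7 and 27.7 TPM in the WT kidneys (log2 fold change -0.47 ± 0.0961 SE, edgeR adjusted p = 0.9999). In ureter it was at 88.0 TPM in the KO library and 77.5 in the WT library, whereas after TMM scaling it was at 630.6 and 728.2 CPM. Gene-level values therefore do not check the ureter genotype, and that library is called the ureter library labelled Ahnak KO. In kidney the direction went with the labels (edgeR unadjusted p = 0.0027), but Ahnak was not called. The kidney genotypes are taken from the labels too.

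P2rx4 was the most abundant of the 10 receptors in kidney and Adora1 came next, whereas P2ry2 and P2rx4 led in ureter. TPM is a per-length scale, so levels can be compared between genes on it. In kidney (mean ± SD, n = 4) P2rx4 was at 17.4 ± 1.83 TPM, Adora1 at 11.9 ± 1.18 and P2ry14 at 6.68 ± 2.81. The ranges of these 3 did not overlap each other. P2ry6 followed at 2.78 ± 0.907 TPM and overlapped P2ry14. P2ry2, P2rx7, P2ry1, P2rx1 and P2rx5 lay between 1.59 and 1.12 TPM, and from P2ry6 down to P2rx5 each neighbour overlapped the next. P2rx3 was last at 0.29 ± 0.202 TPM, below every value of P2rx5. In ureter (n = 2) the order began with P2ry2 at 11.8 ± 2.65 TPM and P2rx4 at 11.7 ± 0.411, which overlapped. P2ry6 at 5.57 ± 0.225 and P2rx1 at 5.03 ± 0.0676 came next without overlap. Adora1, P2rx7, P2ry14 and P2ry1 lay between 2.27 and 1.97 TPM and overlapped, and P2rx3 at 0.26 ± 0.373 and P2rx5 at 0.19 ± 0.0105 were lowest.

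**Figure D1:**
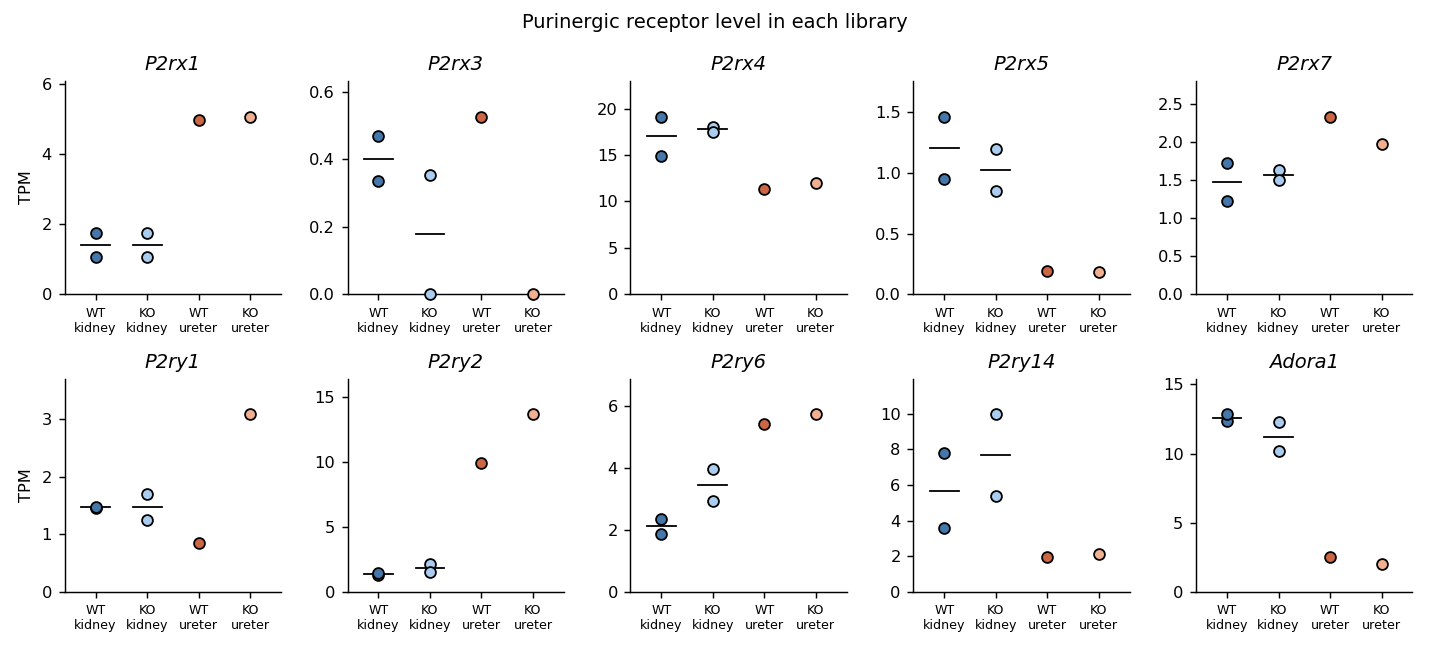
Level of each receptor in TPM (vertical axis, from 0, own scale for each gene) in each library, grouped by genotype and tissue. Points are libraries and the lines are means of 2 kidney libraries. On this scale P2rx1, P2rx7, P2ry2 and P2ry6 lie higher in both ureter libraries than in any kidney library, and Adora1, P2rx4, P2rx5 and P2ry14 lie lower. After TMM scaling P2rx4 overlaps. The share of all genes without overlap between the tissues was not counted. P2rx3 is listed at 0 in Ahnak KO kidney 1 and in the ureter library labelled Ahnak KO.

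The make-up of each receptor class differed between the tissues. Among the 7 P2X channels P2rx4 gave 73.3% to 74.9% of the summed TPM in the kidney libraries and 55.9% to 58.8% in ureter. P2rx1 gave 4.35% to 7.38% in kidney and 24.4% to 24.9% in ureter. Of the summed TPM of 7 P2Y receptors, P2ry14 gave 34.8% to 56.4% in kidney and 7.55% to 8.95% in ureter, while P2ry2 gave 10.2% to 12.9% and 45.3% to 49.2%. These ranges did not overlap. Adora1 gave 51.9% to 76.1% of the 4 adenosine receptors in kidney and 16.2% to 17.7% in ureter. The highest of those kidney shares, 76.1%, was that of Ahnak KO kidney 1, where Adora2a, a receptor that raises cyclic AMP, was at 150 counts against 585 to 751 in the other kidneys. Summed over the class, the P2X channels were at 23.4 ± 2.29 TPM in kidney and 20.4 ± 0.0214 in ureter, the P2Y receptors at 14.1 ± 3.59 and 24.9 ± 4.17, and the adenosine receptors at 21.0 ± 3.91 and 13.3 ± 1.31 (SD, n = 4 and n = 2). No test was run on the shares or sums. On the TPM scale the median of all genes also lay lower in ureter, at -0.35 on log2(TPM + 1), and the sums carry that shift.

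**Figure D2:**
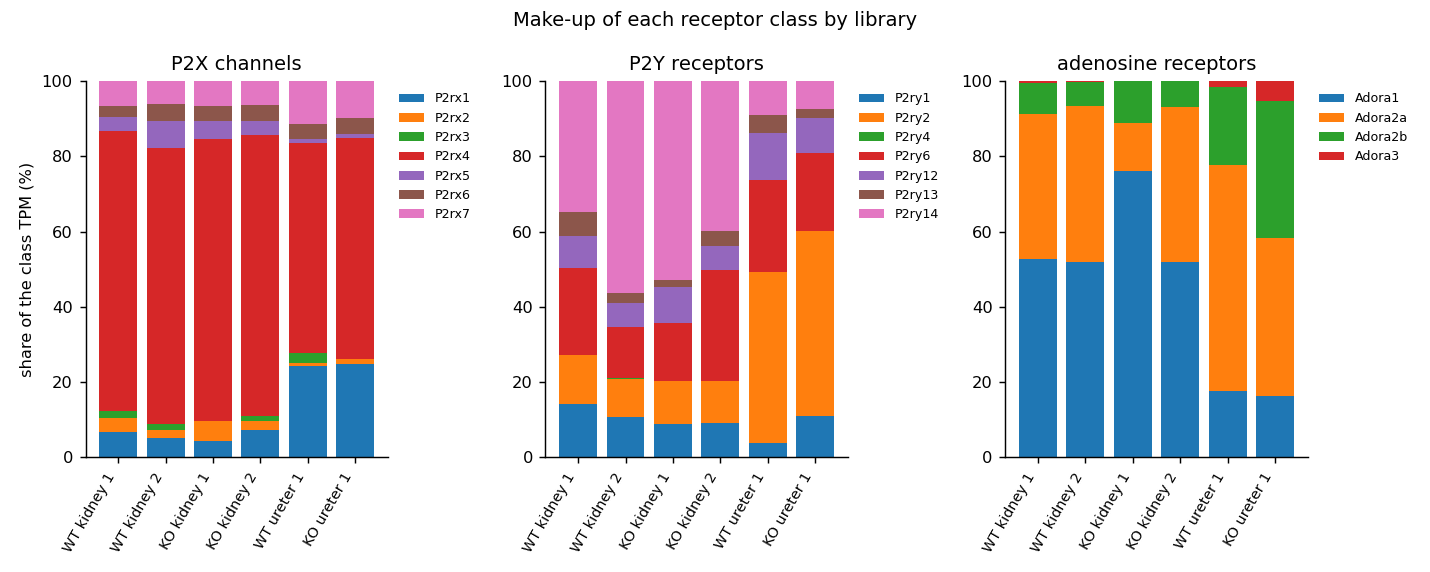
Share of the summed TPM of a class (vertical axis, percent) given by each receptor, for 7 P2X channels, 7 P2Y receptors and 4 adenosine receptors, in each library. P2rx4 fills 73.3% to 74.9% of the P2X bar in kidney, and the P2ry2 part of the P2Y bar is 10.2% to 12.9% in kidney and 45.3% to 49.2% in ureter.

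To find the receptors that differ between the tissues, ureter was compared with kidney over all 6 libraries with genotype as a term (edgeR quasi-likelihood test, Benjamini-Hochberg adjusted over 16873 genes). Of the 10 members, 4 were called higher in ureter (P2ry2, P2rx1, P2ry6 and P2rx7), where 21.4% of all genes were, and 2 were called higher in kidney (Adora1 and P2rx5), where 23.7% were. The median log2 fold change was 0.21 over the members and -0.08 over all genes tested. An unadjusted edgeR p under 0.05 was given to 7 members and to 52.8% of all genes. Overlap between the tissues is given below for members only, and its share over all genes was not counted. In bulk tissue, fewer cells of a type and less RNA per cell cannot be told apart.

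**Figure D3:**
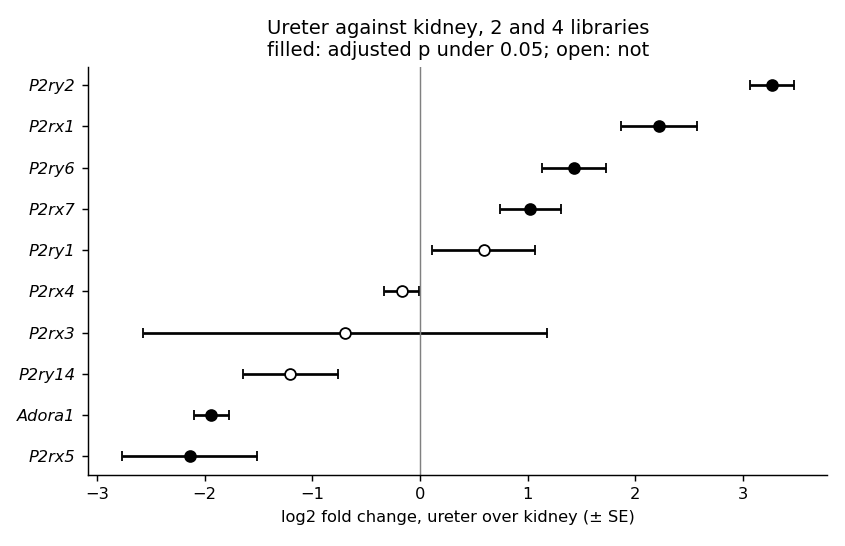
Log2 fold change of ureter over kidney (horizontal axis) for each receptor, with SE, from 4 kidney and 2 ureter libraries. Filled points have an adjusted p under 0.05 and open points do not. P2ry2 lies farthest to the right at 3.27 and P2rx5 farthest to the left at -2.14.

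Of these 6 calls, those of P2ry2, P2rx1 and Adora1 held under each alternative tried, and the promoters of these 3 genes are shown for that reason. The sequences are the 250 bases before the start annotated in RefSeq's GRCm38.p6 table, printed along the gene's strand. The GENCODE spans of all 3 genes start elsewhere. The P2ry2 window lies wholly within the GENCODE span of P2ry2 (chr7:100996568-101012866). The P2rx1 window reaches past the GENCODE start of P2rx1 (chr11:72999103). By that annotation these 2 windows hold bases from within the gene. The Adora1 window lies wholly before the GENCODE start of Adora1 (chr1:134235431) and does not reach it. Capitals mark GGGCGG on either strand, the core of the site known for Sp factors.
P2ry2 (chr7:101012054-101012303, minus strand): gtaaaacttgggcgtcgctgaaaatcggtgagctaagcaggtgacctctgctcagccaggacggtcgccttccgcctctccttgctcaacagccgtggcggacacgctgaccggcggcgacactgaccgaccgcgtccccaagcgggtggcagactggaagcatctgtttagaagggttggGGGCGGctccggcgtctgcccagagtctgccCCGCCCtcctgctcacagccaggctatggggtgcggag
P2rx1 (chr11:72998895-72999144, plus strand): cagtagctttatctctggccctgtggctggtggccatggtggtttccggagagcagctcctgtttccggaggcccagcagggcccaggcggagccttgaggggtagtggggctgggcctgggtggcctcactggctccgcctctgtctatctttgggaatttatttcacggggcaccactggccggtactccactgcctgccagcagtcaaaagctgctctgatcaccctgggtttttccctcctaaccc
Adora1 (chr1:134235458-134235707, minus strand): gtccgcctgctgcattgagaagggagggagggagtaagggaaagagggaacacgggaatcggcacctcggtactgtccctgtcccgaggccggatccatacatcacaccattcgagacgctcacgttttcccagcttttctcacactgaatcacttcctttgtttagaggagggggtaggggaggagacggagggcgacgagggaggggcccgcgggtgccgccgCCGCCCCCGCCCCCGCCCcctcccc
GGGCGG occurred at 2 positions before P2ry2, at 3 before Adora1 and at none before P2rx1, and 32.9% of 27025 promoter windows of the same length held it. The 3 copies before Adora1 lie end to end, 25 to 8 bases before the RefSeq start. TATAAA (13% of all windows), CCAAT (34.5%) and the CArG box of smooth muscle genes (1.40%) were in none of the 3 windows, and these motifs do not overlap each other. GC content was 65.2% for P2ry2, 61.2% for P2rx1 and 64.4% for Adora1, where the median window had 52.0%. Of the 10 members, 7 matched the table, and P2rx3, P2rx5 and P2ry6 did not. No difference between the tissues can be read from these letters.

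P2rx1, the ATP-gated channel of smooth muscle and platelets, rose in ureter. It was at 1.74 and 1.06 TPM in the WT kidneys, 1.05 and 1.73 in the Ahnak KO kidneys, 4.98 in the WT ureter and 5.07 in the ureter library labelled Ahnak KO. Both ureter libraries were above all 4 kidney libraries. The counts behind these values were 72 to 141 in kidney and 241 to 359 in ureter, and the log2 fold change was 2.22 ± 0.352 SE (4.66-fold, edgeR adjusted p = 0.0033). Smooth muscle markers (9 genes, 9 called higher in ureter) summed to 503 to 613 TPM in kidney and 4454 to 5836 in ureter, with none at 0. Markers of megakaryocytes and platelets (6 genes, 2 called higher and 1 lower) summed to 35.4 to 42.6 and 119 to 193 TPM, with Gp9 and Gp5 at 0 in both ureters. Their part in the P2rx1 difference was not tested.

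P2rx4, a channel found in many epithelia, endothelium and macrophages, was the member with the closest levels in the tissues once counts were scaled. After TMM scaling it was at 18.4 to 23.7 CPM in kidney and 17.6 to 20.9 CPM in ureter, so the groups overlapped (log2 fold change -0.17 ± 0.159 SE, edgeR adjusted p = 0.42). On the TPM scale it was at 14.9 to 19.2 in kidney and 11.4 to 12 in ureter, without overlap, and limma called it lower in ureter on log2(TPM + 1) (-0.53). That scale also moved the median of all genes, to -0.35 from -0.08.

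P2rx7, the channel that needs high ATP and activates the inflammasome in macrophages, was higher in ureter by 1.03 ± 0.282 SE on the log2 scale (2.04-fold, edgeR adjusted p = 0.026). After TMM scaling it was at 3.68 and 2.82 CPM in the WT kidneys, 3.73 and 2.54 in the Ahnak KO kidneys, 6.61 in the WT ureter and 6.34 in the ureter library labelled Ahnak KO. The ureter values did not overlap the kidney values. The call was lost without Ahnak KO kidney 2, WT kidney 1, WT kidney 2 or either ureter library (adjusted p = 0.050 to 0.098), and it held without Ahnak KO kidney 1. On the TPM scale the difference was smaller and the call was lost, with 0.33 on log2(TPM + 1) and 0.48 on log2(TPM + 0.1) (limma adjusted p = 0.17 and 0.21). Macrophage markers (9 genes, 5 called higher in ureter and 1 lower) summed to 135 to 211 TPM in kidney and 222 to 324 in ureter, with none at 0, and their part was not tested.

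P2rx5, a channel described in developing muscle, fell in ureter by 2.14 ± 0.63 SE on the log2 scale (edgeR adjusted p = 0.033). It held 72 and 95 counts in the WT kidneys, 78 and 56 in the Ahnak KO kidneys, 14 in the WT ureter and 8 in the ureter library labelled Ahnak KO. Both ureter libraries were below all kidney libraries, but few reads lay behind them. Leaving out any of the 6 libraries ended the call (adjusted p = 0.054 to 0.12), with log2 fold changes of -1.97 to -2.25. Striated muscle markers (10 genes, 7 called higher in ureter) moved the other way, from 10.4 to 14.1 TPM in kidney to 181 to 462 in ureter, with Myod1 at 0 in every library. Their part was not tested.

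P2rx3, the channel of sensory nerve endings that sense filling and pain, was the scarcest member in kidney. The study singled it out from these libraries, so its direction here is not independent evidence. It held 65 and 40 counts in the WT kidneys, 0 and 43 in the Ahnak KO kidneys, 66 in the WT ureter and 0 in the ureter library labelled Ahnak KO. Both genotypes overlapped in kidney, and the tissues overlapped too (ureter over kidney -0.70 ± 1.88 SE on the log2 scale, edgeR adjusted p = 0.79). That direction turned in 4 of the 15 alternatives that gave a value. Of the libraries listed at 0, Ahnak KO kidney 1 stood apart by Xist and the ureter library labelled Ahnak KO by Rn45s. WT kidney 2, which stood apart by red blood cell markers, held 40 counts. A link with any of these traits was not tested. Markers of neurons and Schwann cells (10 genes, 5 called higher in ureter) summed to 12.7 to 15.0 TPM in kidney and 35.8 to 36.2 in ureter, with Th, Dbh and Prph each at 0 in some library, and their part was not tested.

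The table's 0 for P2rx3 is an estimate and not a direct count of reads. Of 1004 genes with a mean between 35.2 and 78.8 counts in the WT kidneys, 4.58% were listed at 0 in Ahnak KO kidney 1 (95% Wilson interval 3.45% to 6.06%), and 0.498% in Ahnak KO kidney 2 (0.213% to 1.16%). In the ureter library labelled Ahnak KO, 12% of 914 genes with 44.2 to 99 counts in the WT ureter were listed at 0 (10.1% to 14.3%). The study followed P2rx3 by qPCR and by staining of the protein, and reported both as lower in Ahnak KO than in WT kidney at PN1. The qPCR primers are shown because they mark which part of the transcript that assay reads.
P2rx3 forward primer: cctactttgtggggtgggtt
P2rx3 reverse primer: ctgttggcatagcgtccgaa
By exact match to the GENCODE transcripts of GRCm38, the forward primer spans the junction of coding exons 1 and 2 of the P2rx3-201 transcript (13 bases at chr2:85035181-85035193 and 7 at chr2:85024985-85024991, minus strand). The reverse primer lies in exon 2 (chr2:85024893-85024912), and the product is 112 bases long. The pair matched 3 of the 5 annotated transcripts (P2rx3-201, P2rx3-202 and P2rx3-203), and the other 2 are processed transcripts without these sites.

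P2ry2, the ATP and UTP receptor of epithelia that acts on salt and water transport, had the largest difference among the members. It was at 1.32 and 1.41 TPM in the WT kidneys, 2.15 and 1.49 in the Ahnak KO kidneys, 9.96 in the WT ureter and 13.7 in the ureter library labelled Ahnak KO. Both ureter values lay above all 4 kidney values. The log2 fold change of ureter over kidney was 3.27 ± 0.205 SE (9.65-fold, edgeR adjusted p = 7.94e-05), and it was 3.15 within the WT libraries and 3.38 within the Ahnak KO libraries. Urothelium markers rose with it (8 of 8 genes called higher in ureter, none at 0, sums as given above), and their part was not tested.

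P2ry6, the UDP receptor known for phagocytosis by microglia and macrophages, rose in ureter by 1.43 ± 0.296 SE on the log2 scale (2.69-fold, edgeR adjusted p = 0.0095). It was at 2.36 and 1.86 TPM in the WT kidneys, 2.92 and 3.98 in the Ahnak KO kidneys, 5.41 in the WT ureter and 5.73 in the ureter library labelled Ahnak KO. All ureter values exceeded all kidney values. Without the WT ureter the call was lost (1.19, adjusted p = 0.060), and the part of the macrophage markers given for P2rx7 was not tested.

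P2ry14, the UDP-glucose receptor known from intercalated cells of the collecting duct, had the largest SD in TPM among the kidneys, although P2rx3 varied more relative to its level. It was at 3.56 and 7.81 TPM in the WT kidneys and at 9.98 and 5.37 in the Ahnak KO kidneys, against 1.97 in the WT ureter and 2.1 in the ureter library labelled Ahnak KO. Both ureters lay below all 4 kidneys, yet the test across all genes was not passed (log2 fold change -1.20 ± 0.444 SE, edgeR adjusted p = 0.067). Leaving out WT kidney 1, the lowest kidney, gave -1.41 with an adjusted p of 0.040, and DESeq2 and limma on TPM also called it. Intercalated cell markers (7 genes, 7 called lower in ureter) summed to 75.9 to 92.6 TPM in kidney and 0.471 to 1.89 in ureter, where Atp6v1g3, Atp6v0d2, Slc26a4 and Foxi1 were at 0 in both. P2ry14 was not at 0 there.

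P2ry1, the ADP receptor of platelets and many other cells, had its highest and its lowest value in the 2 ureter libraries. It was at 1.45 and 1.48 TPM in the WT kidneys, 1.70 and 1.24 in the Ahnak KO kidneys, 0.85 in the WT ureter and 3.08 in the ureter library labelled Ahnak KO. The 4 kidneys were close together and lay between the ureters. Ureter over kidney was 0.59 ± 0.483 SE on the log2 scale (edgeR adjusted p = 0.36), with -0.46 when the ureter library labelled Ahnak KO was left out and 1.43 (adjusted p = 0.024) when the WT ureter was.

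Adora1, the receptor through which adenosine narrows the afferent arteriole and lowers filtration, had the lowest adjusted p among the members higher in kidney. It was at 12.3 and 12.8 TPM in the WT kidneys, 12.3 and 10.2 in the Ahnak KO kidneys, 2.53 in the WT ureter and 2.01 in the ureter library labelled Ahnak KO. No ureter value came near a kidney value. It fell in ureter by 1.94 ± 0.159 SE on the log2 scale (3.83-fold lower, edgeR adjusted p = 0.00022), and by 1.86 to 2.34 over the alternatives. Kidney markers, 13 of 13 called lower in ureter, moved with it, and their part was not tested.

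Several members lie next to each other or share exons with another gene in the GENCODE annotation of GRCm38. P2rx7 (chr5:122643911-122691432) ends 16111 bases before P2rx4 (chr5:122707544-122729738), and P2ry6 (chr7:100937630-100974649) lies 21918 bases from P2ry2 (chr7:100996568-101012866), with no protein-coding gene between in either pair. Of the first pair only P2rx7 was called between the tissues, and of the second both rose in ureter. P2rx1 (chr11:72999103-73015200) and P2rx5 (chr11:73160421-73172685), 145220 bases apart with 4 protein-coding genes between, moved in opposite directions. P2ry14 (chr3:59113855-59153618) and P2ry1 (chr3:61002795-61008982) share a chromosome, and P2rx3 (chr2:84998583-85037462) and Adora1 (chr1:134199223-134235431) stand alone. Whether strand was used in counting is not given in the sources used here, so reads of overlapping genes cannot be told apart. Adora1 shares 20.1% of its exonic bases with Mybph on the other strand, which held 0 to 15 counts. P2rx3 shares 1.83% with Ssrp1, which held 5299 to 19136 counts, P2ry1 shares 23.1% with the antisense gene Gm37035, and P2ry14 shares none with Med12l, in whose span it lies.

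The other genes of the pathway came from 4 lists. Of 9 further purinergic receptors 7 were tested, and 2 were called higher in ureter, where 21.4% of all genes were, and none lower, where 23.7% were (median log2 fold change 1.17). These were P2ry12, the platelet and microglia ADP receptor (1.70 ± 0.421 SE, adjusted p = 0.018), and Adora2b, a low-affinity adenosine receptor (1.55 ± 0.372, adjusted p = 0.016). P2ry4 held at most 6 counts in any library.

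Of 10 genes for nucleotide release 9 were tested, with 3 called higher in ureter and 1 lower (median 0.19), against 21.4% and 23.7% of all genes. Gjb6, a connexin, was at 0.288 to 1.04 TPM in kidney and 59.0 to 62.5 in ureter (7.10 ± 0.328 SE, edgeR adjusted p = 2.84e-05). Calhm2, of the CALHM channel family, differed by 1.32 ± 0.349 SE and Lrrc8a, a subunit of the volume-regulated anion channel, by 0.66 ± 0.163 SE, although Lrrc8a TPM values overlapped between the tissues. Gja1, another connexin, was at 74.6 to 92.1 TPM in kidney and 19.2 to 19.3 in ureter (-1.71 ± 0.129 SE, adjusted p = 0.00016). The vesicular nucleotide transporter Slc17a9 and the ATP channel Panx1 were not called (-0.22 ± 0.704 and 0.07 ± 0.213 SE).

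The list for the breakdown of extracellular nucleotides had the highest share of calls. It includes the adenylate kinase Ak1, which was not called (0.54 ± 0.181 SE, edgeR adjusted p = 0.051). Of 9 genes tested, 7 were called higher in ureter and 1 lower, with a median of 1.44, against 21.4% and 23.7% of all genes and their median of -0.08. Entpd3, which hydrolyses ATP and ADP, was at 0.710 to 1.18 TPM in kidney and 25.3 to 29.4 in ureter (5.27 ± 0.182 SE, edgeR adjusted p = 1.17e-05). Nt5e, which makes adenosine from AMP, was at 3.11 to 4.49 TPM in kidney and 17.9 to 27.9 in ureter (2.97 ± 0.238 SE, adjusted p = 0.0002). Entpd1, another ATP and ADP hydrolase, was higher by 1.89 ± 0.172 SE. Entpd8, of the same enzyme family, went the other way. It held 299 to 475 counts in the kidneys and was listed at 0 in both ureters, at least 81.5-fold lower against a floor of 3 counts in each library.

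For the uptake and breakdown of adenosine, 10 genes were tested, with 3 called higher in ureter and 3 lower (median -0.44), against 21.4% and 23.7% of all genes. Ada, which deaminates adenosine, was higher by 1.63 ± 0.274 SE and the equilibrative transporter Slc29a1 by 0.62 ± 0.0993 SE (edgeR adjusted p = 0.0042 and 0.0034). The concentrative transporter Slc28a3 was listed at 0 in all kidneys and held 27 and 48 counts in the ureters, at least 19.1-fold higher. Dpp4, a brush border peptidase that binds adenosine deaminase in some species only, was at 71.7 to 115 TPM in kidney and 0.873 to 2.21 in ureter (-5.59 ± 0.408 SE). The nucleoside transporter Slc29a2 was also lower (-2.32 ± 0.313 SE). Slc28a1, a concentrative transporter, was called lower as well, on 43 to 71 counts in the kidneys and 0 and 6 in the ureters.

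**Figure D4:**
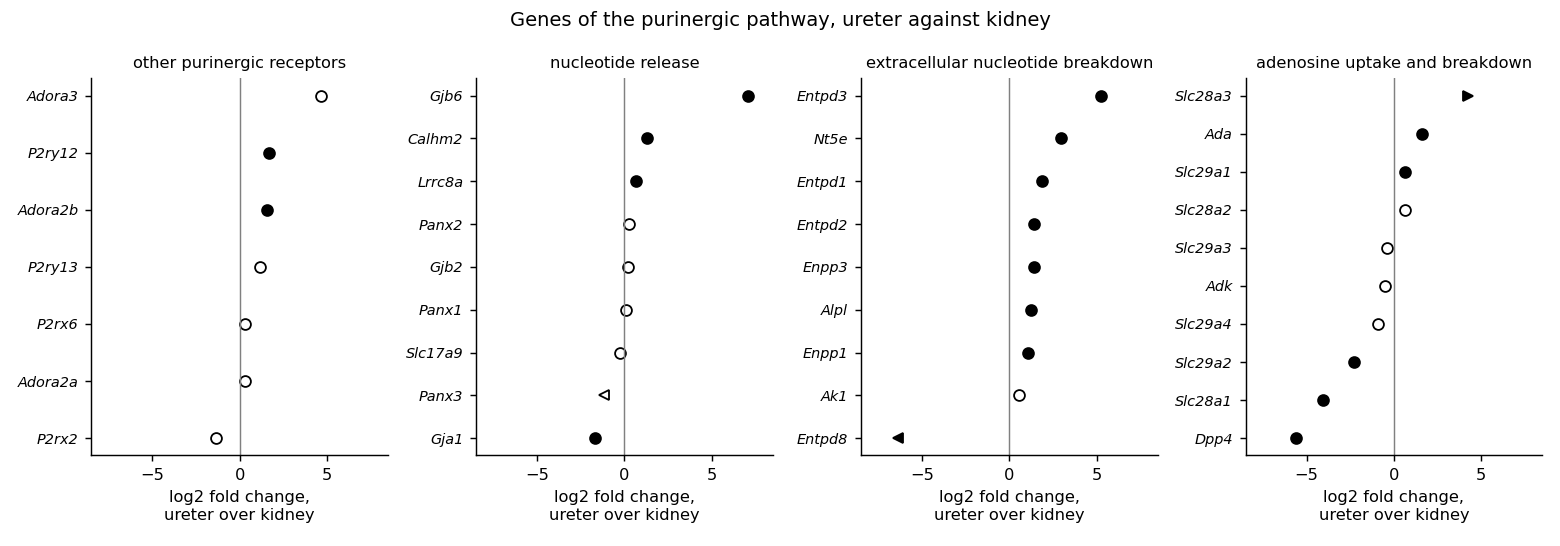
Log2 fold change of ureter over kidney (horizontal axis) for each tested gene of the 4 pathway lists. Filled symbols have an adjusted p under 0.05, open ones do not, and arrowheads are bounds for genes at 0 in every library of a tissue. In the list for extracellular nucleotide breakdown 7 filled points lie right of 0 and Entpd8 lies left.

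The genes with the most similar pattern over the 6 libraries were found for the 8 members with at least 50 counts in every library, by the root mean square difference of centred log2(CPM + 0.5) among 16736 genes. The limit of 50 counts was set for the members and not for the genes near them. For P2ry2 these were Capn1 (0.104) and Nectin1 (0.114), for P2rx1 Rassf5 (0.106) and Myoc (0.128), and for P2ry6 Tusc5 (0.0945) and Guca1a (0.135). Myoc was at 0 to 0.324 CPM in the kidneys, so the added 0.5 weighs on its distance. P2rx4 was nearest to Yrdc (0.0287) and Plaa (0.0327), P2rx7 to Runx1t1 (0.0546) and S1pr4 (0.0757), and Adora1 to Csrnp2 (0.0595) and Asb4 (0.0665). Glod5 (0.105) and Agmat (0.162) were nearest to P2ry14, and like it they were highest in Ahnak KO kidney 1 and lowest among the kidneys in WT kidney 1, but unlike it they were listed at 0 in both ureters. Grap2 (0.121) and Mirc35hg (0.123) were nearest to P2ry1, and both were highest in the ureter library labelled Ahnak KO and at 0 in the WT ureter. These values are descriptions over 6 libraries that share tissue and depth.

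To find the receptors that differ with genotype, Ahnak KO kidneys were compared with WT kidneys, 2 libraries against 2. None of the 10 members was called by edgeR, none had an unadjusted p under 0.05, and DESeq2 called none, where edgeR called 0.0121% of 16481 genes and 227 genes had an unadjusted p under 0.05. On simulated counts this test called 16.5% of changes of 1 on the log2 scale, so the lack of a call does not show equal levels. The median log2 fold change was 0.04 over the members and -0.0041 over all genes. Both KO kidneys lay above both WT kidneys for 2 members, P2ry6 and P2ry2, where 12.7% of all genes did, and below for none, where 13.5% did.

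P2ry6 was at 2.61 and 3.71 CPM in the Ahnak KO kidneys and 2.11 and 1.66 in the WT kidneys (log2 fold change 0.74 ± 0.365 SE, unadjusted p = 0.086, edgeR adjusted p = 0.9999). For P2ry2 the values were 3.0 and 2.18 against 1.87 and 1.99 CPM (0.43 ± 0.36 SE). P2ry14 differed by 0.44 ± 0.461 SE with overlapping groups, and the direction turned without Ahnak KO kidney 1 (-0.06) or WT kidney 1 (-0.03). P2rx3 differed by -1.11 ± 1.46 SE. Without Ahnak KO kidney 1, the library listed at 0, it was at 43 counts against 65 and 40 and the log2 fold change was -0.11. Without Ahnak KO kidney 2, which leaves the listed 0 as the one KO value, the fit gave -8.66 (edgeR adjusted p = 0.095), a size that depends on the fit's prior count, and with the replicate number as a block it gave -2.37. In these libraries the RNA-seq difference thus rested on which KO kidney was kept. By its own RNA-seq test the study lists P2rx3 among the most reduced genes of Ahnak KO kidney, whereas it was not called here. P2rx1, P2rx4, P2rx5, P2rx7, P2ry1 and Adora1 had log2 fold changes between -0.20 and 0.10, each smaller than its SE. In the 4 pathway lists no gene was called. Entpd1 (0.67 ± 0.204 SE) and Ada (0.61 ± 0.235 SE) had an unadjusted p under 0.05, with edgeR adjusted p = 0.9999 for each.

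**Figure D5:**
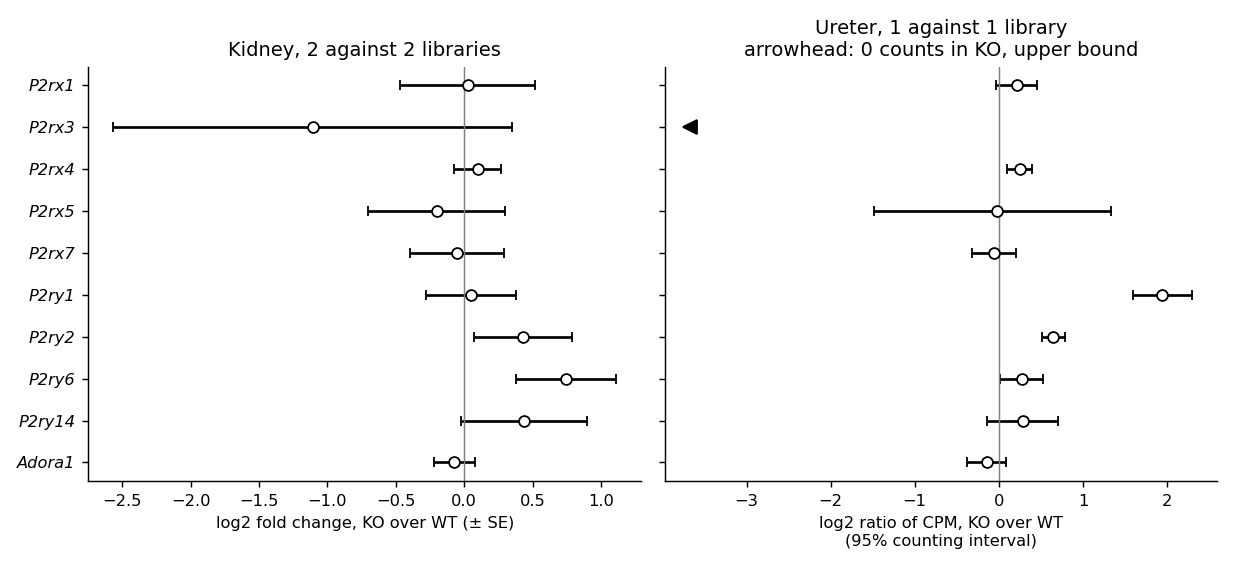
Ahnak KO over WT for each receptor, on the left as log2 fold change ± SE in kidney (2 against 2 libraries) and on the right as log2 ratio of CPM with the 95% counting interval in ureter (1 against 1 library). The P2rx3 arrowhead is the bound set by 3 counts, without the counting error of the WT library. P2ry1 in ureter lies at 1.94, and no kidney value passes the test.

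Between the ureters there was 1 library of each genotype, so no test was made and the difference has no replicate check. On the log2(CPM + 0.5) scale the KO-labelled library was over 2-fold higher for 1 member, P2ry1 (1.67), where 4.44% of 16117 genes were, and over 2-fold lower for 1, P2rx3, where 5.78% were. P2ry1 held 218 counts there and 98 in the WT ureter, 6.40 and 1.67 CPM, and the log2 ratio of CPM was 1.94 (95% Clopper-Pearson interval 1.59 to 2.30, which covers the counting error of 1 library per genotype only). P2rx3 held 0 and 66 counts, and if the listed 0 is taken as a count it was 12.7-fold lower against a floor of 3 counts. That value leaves out the counting error of the WT library, and the 95% Clopper-Pearson interval of the log2 ratio reached up to -3.33. In that library megakaryocyte and platelet markers summed to 193 TPM and macrophage markers to 324, against 119 and 222 in the WT ureter. Of the 4 platelet markers with enough counts 2 were over 2-fold higher and 1 over 2-fold lower, and of the 9 macrophage markers none was past 2-fold. Other sums also differed, with striated muscle markers at 181 against 462 TPM, red blood cell markers at 1067 against 2321 and adipose markers at 1318 against 749.5. The part of these markers was not tested. Scaling by library size alone moved the share of higher genes among those over 2-fold from 43.4% to 29.3%, and the median of all genes to -0.20 from -0.02, with P2ry1 at 1.51.

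P2ry2 was higher in the library labelled Ahnak KO by 0.63, with 803 against 885 counts at unequal depth (interval of the ratio without pseudocount 0.51 to 0.79), and by 0.44 with library size alone. The other 7 members lay between -0.14 and 0.25. P2rx4 (0.24), P2ry6 (0.25), P2ry14 (0.23) and P2rx1 (0.20) were on the higher side, and P2rx7 (-0.05), P2rx5 (-0.01) and Adora1 (-0.14) on the lower. P2rx5 rested on 8 and 14 counts, with an interval from -1.48 to 1.33 from counting error alone.

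Whether the genotype difference itself varied with tissue was tested as an interaction over all 6 libraries, where the spread comes from the kidneys. None of the 10 members was called by edgeR, where 0.108% of 17557 genes were, and 1 member had an unadjusted p under 0.05, where 12.4% of all genes had. DESeq2 called none of the members either. That member was P2ry1, with a difference of 1.89 ± 0.544 SE on the log2 scale (unadjusted p = 0.014, edgeR adjusted p = 0.27, and 0.20 to 0.57 over the alternatives). Next came P2ry6 at -0.47 ± 0.555 SE and P2ry2 at 0.22 ± 0.4 SE. The fitted value of P2rx3 depends on the 0 in the ureter and is not given. The kidney and ureter comparisons share no library, but each ureter arm is a single sample whose spread is assumed to be that of the kidneys.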

How the data were processed

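Bulk RNA-seq of mouse kidney and ureter at PN1 was used, 6 libraries in all. The methods name a stranded mRNA kit, STAR and Cufflinks on GRCm39, whereas the submitters' processing notes name FastQC 0.11.7, Trimmomatic 0.38, HISAT2 2.1.0, StringTie 1.3.4b and R 3.6.1, and the deposited table is named for mm10. Which of these made the table is not given in the sources used here. The table deposited by the authors holds estimated read counts as whole numbers, not normalized. The authors also deposited TPM and FPKM values, and TPM was used here for levels. FPKM was not used.

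Groups were taken from the sample labels. Tests had been planned for counts and were run on the deposited estimated counts, with edgeR 4.0.16 in R 4.3.3 (TMM factors, filterByExpr, quasi-likelihood F test, Benjamini-Hochberg adjustment over all genes tested, threshold 0.05). The tissue test used 6 libraries with a genotype term (3 residual degrees of freedom), the kidney genotype test 4 libraries (2), and the interaction 6 libraries (2). SE was approximated from the F statistic, as the size of the log2 fold change over the root of F. Ureters were compared by log2(CPM + 0.5) for genes with at least 10 counts in either library. A filter on low values can call a gene through the group where it is high. Each test was checked on simulated counts with known changes, at a dispersion of 0.05. Every simulated gene had that same dispersion, and genes of low counts were not among those changed. The fits to the data gave common dispersions of 0.0540 to 0.0724. Of changes of 1 on the log2 scale, the tissue test called 39%, the kidney genotype test 16.5% and the interaction test 0%. Of changes of 2 they called 99%, 97% and 44%, in that order. These shares need not hold for members with few counts, such as P2rx3 and P2rx5. Alternatives were DESeq2 1.42.0, its size factors, other filters, limma 3.58.1 on log2(TPM + 1) and log2(TPM + 0.1), WT or KO libraries alone, a replicate block, all 6 libraries in the kidney test, and leaving out each library. For the ureters they were scaling by library size alone, a pseudocount of 0.1 CPM, at least 50 counts, and TPM + 0.5. Per the file headers, kidney 2 and the ureter of each genotype share a number. No label says that they came from the same mouse, so the tissue test treated all libraries as independent, and it may not hold if they did. A fit without the first kidney of each genotype, and a crossed block, were chosen after seeing the data. Python 3.11.15 with pandas 2.3.3 and scipy 1.17.1 did the rest.

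The members and the gene lists were chosen with earlier results of these data known. Genes were named by rule: the 10 members, Ahnak, up to 3 called genes of largest change in each direction in each pathway list, and for members with at least 50 counts in every library the 2 nearest genes. P2ry4, Adora2a, Slc17a9, Panx1, Ak1, Entpd1 and Ada in kidney, Xist, Rn45s and the overlapping genes were named after their values were seen. A further neuron marker is not reported here.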

Additional observations from a re-analysis of the deposited data

How the results depend on the processing

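Over 16 alternatives for ureter against kidney, P2ry2, P2rx1 and Adora1 were called in 16 with log2 fold changes of 2.30 to 3.38, 1.34 to 2.41 and -2.34 to -1.86. P2ry6 was called in 13, P2rx7 in 6 of 16 and P2rx5 in 6 of 15, and all kept their direction. The count of members called higher in ureter was 2 with Ahnak KO libraries only or with kidney replicate 2 and ureter only, and 3 to 4 when a library was left out. The count called higher in kidney was 1 with at least 10 counts in every library, WT libraries only, Ahnak KO libraries only or kidney replicate 2 and ureter only, 4 with limma on log2(TPM + 1) or log2(TPM + 0.1), and 1 to 2 when a library was left out. The limma fits on TPM called 2275 or 2236 genes higher in ureter and 7279 or 7457 higher in kidney, against 3603 and 3992 in edgeR, with the median of all genes at -0.35 or -0.45. The P2rx3 tissue difference turned to 0.19 without a genotype term and 0.70 in WT libraries, and ranged from -7.36 to 0.71 when a library was left out. That of P2ry1 turned to -0.47 in WT libraries and ranged from -0.46 to 1.43.

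No member was called between genotypes in kidney under any of 13 alternatives (12 for P2rx3), or in the interaction under any of 7. Small kidney differences turned sign with limma on log2(TPM + 1) or log2(TPM + 0.1): P2rx1 to -0.0069 and -0.012, P2rx7 to 0.059 and 0.098, P2ry1 to -0.0028 and -0.00998. Leaving out a library gave kidney ranges of -0.43 to 0.42 for P2rx1, -8.66 to -0.11 for P2rx3, -0.074 to 0.29 for P2rx4, -0.48 to 0.14 for P2rx5, -0.36 to 0.20 for P2rx7, -0.16 to 0.23 for P2ry1, -0.058 to 1.1 for P2ry14 and -0.22 to 0.061 for Adora1. Interaction ranges were -0.20 to 0.65 for P2rx1, -0.032 to 0.33 for P2rx4, -0.15 to 0.47 for P2rx5, -0.25 to 0.31 for P2rx7, -0.82 to 0.36 for P2ry14 and -0.20 to 0.090 for Adora1, and P2rx7 was at 0.011 with RLE size factors and 0.0081 with DESeq2. The causes of these turns were not tested. DESeq2 called 46 kidney genes where edgeR called 2.

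The labels do not say what a shared kidney number means. The deviations of same-numbered kidneys correlated at -0.29 over 14616 genes and those of the crossed pairs at 0.29, which with 2 libraries a group is 1 value and not separate evidence from each pair. The numbers were not taken to pair the libraries. A fit with the replicate number as a block called 0 members and 0 genes, and the crossed pairing, chosen after seeing the data, called 0 members and 1 gene. P2rx3 and P2rx5 held the fewest counts, 0 to 66 and 8 to 95. Where only 1 ureter library was left in a fit, its spread was assumed to be that of the other libraries.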
